A study of Mus musculus with 31 samples.

Results

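Ubiquitin-specific proteases, encoded by the Usp genes, are a large family of enzymes that cut ubiquitin off other proteins. From a table of RNA-seq counts of single 2-cell mouse embryos, every gene whose symbol is Usp and a number, with or without further letters, was taken. The Usp17 cluster of near-identical copies was left out, and 1 further Usp gene is not analysed here, which left 50 of 20544 genes. The rule uses the symbol and no measured value, though it was set with earlier results of these data known. One of the 50, Usp6nl, was taken in by its symbol only and encodes a regulator of Rab proteins, not a deubiquitinase.

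The embryos came from in vitro fertilization of oocytes of superovulated CD1 females, 8 to 10 weeks old, with cauda epididymal sperm of C57BL/6J males, 12 to 14 weeks old, all wild type. In the 15 SER-generated embryos, the sperm had undergone sperm energy restriction and recovery (SER). They were kept in a medium without glucose and pyruvate until they stopped moving, after 15 to 45 min, and were then returned to complete medium. In the 16 control-generated embryos, the sperm stayed in complete medium for the same time and went through the same recovery step, and 1 cauda of a male went to each condition. Each embryo was collected whole at 32 h after insemination and gave 1 Smart-seq3 library of polyadenylated RNA. A level is the share of a gene in the RNA of the whole embryo, and the number of cells in each library was not measured. The study compared the groups to learn whether treatment of the sperm changes gene expression around zygotic genome activation. Males, oocytes and batches are not named for single embryos, so p-values measure the spread between these embryos only.

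Ubiquitin marks proteins for destruction by the proteasome and also changes where a protein sits or what it binds. Ubiquitin on histones H2A and H2B accompanies gene silencing, transcription and DNA repair. The late 2-cell stage in the mouse is the time when RNA stored in the oocyte is removed and the embryonic genome is transcribed on a large scale, and several Usp enzymes act on histones, on the proteasome or on regulators of the cell cycle and of splicing. Most Usp enzymes share 1 catalytic domain, which begins with a short stretch known as the Cys box that holds the cysteine used to attack the ubiquitin bond.

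The coding sequence of the Cys box is shown for 8 members, because these carry the contrasts described afterwards. Usp1 and Usp16 were the most abundant members per kb of exon. Usp22 and Usp46 had the steepest rising and falling slopes on an index of the embryos' state, and Usp12 is the close relative of Usp46. Usp9x and Usp9y are the X and Y copies of 1 ancestral gene. Usp39 lacks the catalytic cysteine. Each stretch has 30 bases within 1 coding exon, read 5′ to 3′ along the coding strand from GENCODE vM21 transcripts on GRCm38, and the capitals mark the codon at the place of the catalytic cysteine.
Usp1: cttggcaacactTGTtatctgaatagtatt
Usp16: ttggggaatactTGTttcttcaatgcagtt
Usp22: ctggggaacacgTGTttcatgaactgcatc
Usp46: tttggaaacacaTGCtactgtaactccgtg
Usp12: tttgggaataccTGCtactgcaactcagtt
Usp9x: gctggtgctactTGTtacatgaactctgtg
Usp9y: gctggtgctactTGTtatatgaactctgtg
Usp39: ataaaagccaacGACtatgcaaatgctgtg

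These stretches lie at chr4:98928319-98928348 for Usp1, chr16:87469827-87469856 for Usp16, chrX:13145207-13145236 for Usp9x on the plus strand. On the minus strand they lie at chr11:61162947-61162976 for Usp22, chr5:74032488-74032517 for Usp46, chr5:146763385-146763414 for Usp12, chrY:1333725-1333754 for Usp9y and chr6:72337708-72337737 for Usp39. Usp9x and Usp9y differ at 1 of the 30 bases, Usp12 and Usp46 at 6 and Usp22 and Usp39 at 23. Of the 50 members, 48 have the box with its cysteine codon in the chosen transcript. Usp39, a splicing factor of the U4/U6.U5 particle, has an aspartate codon there, and no box was found in Usp6nl.

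The libraries held 532945 to 3088396 counts. The median was 955806.5 in the control group and 1375557 in the SER group, so the SER libraries were on the whole the deeper ones. CPM are counts divided by the library total and put on the usual common scale. All 18 markers of zygotic activation in the table and 22 of 23 oocyte markers had counts, Oog1 being at 0 in all embryos, and their sums were at least 1262 and 15832 CPM in every embryo. By the mean z score of log2 CPM, control 4 had -2.04 for zygotic and 1.11 for maternal markers, and SER 15 -1.31 and 1.08. These 2 stood apart, and SER 8 followed at a distance with -0.73 and 0.37. The summed CPM put other embryos at the ends. Zygotic sums were lowest in control 5 in the control group and in SER 9 in the SER group. Maternal sums were highest in control 3 (63571 CPM, control median 27389) and SER 8 (32196 CPM, SER median 23418). In control 5, 15 markers of cumulus cells, which surround the oocyte, summed to 1808 CPM, against a control median of 273 and at most 475 in SER-generated embryos. Without Nr5a2, a marker that 2-cell embryos also express, the other 14 summed to 1627 CPM in control 5, at most 97.9 in the other control-generated embryos and 30.0 in SER-generated ones. The part of these embryos in the results was not tested beyond the values given without them. Sperm and spermatid markers summed to at most 30.9 CPM in any embryo.

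All 50 members had a count in at least 1 embryo and 34 in every embryo. Levels are given as CPM and, for comparison between genes, as CPM per kb of exon in the union of annotated exons. By mean CPM per kb, 7 members were above 20, 27 lay between 5 and 20, 10 between 1 and 5 and 6 at or under 1. Of the 50, 41 were above the median of all genes with a count. The 8 members highest in CPM held 52.5% of the summed CPM of the family.

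**Figure D1:**
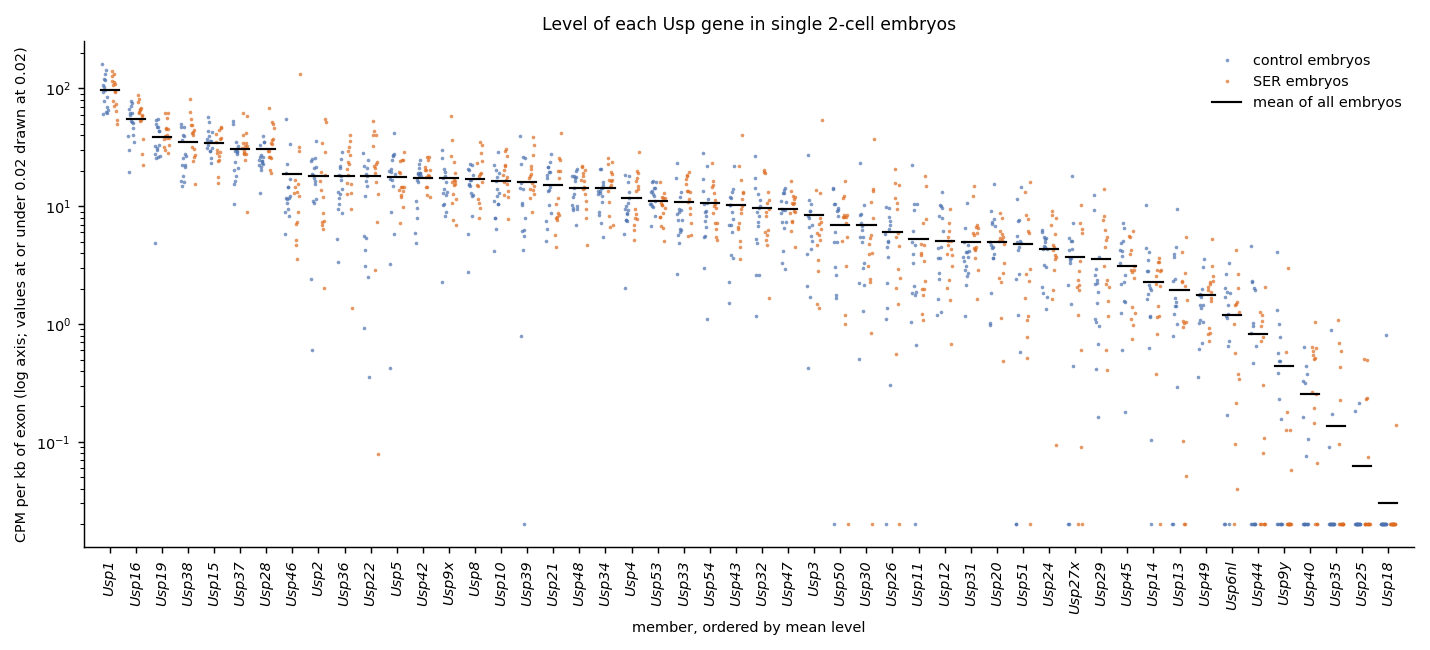
Level of each of the 50 members in every embryo, as CPM per kb of exon on a log axis, with control-generated embryos in blue, SER-generated embryos in orange and the mean of all 31 embryos as a bar. Values at or under 0.02 are drawn at 0.02. Levels fall from a mean of 96.4 for Usp1 to 0.0303 for Usp18. The ranges of the groups overlap in all 44 tested members, and the share over all tested genes was not computed.

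Usp1, which works with Wdr48 in DNA repair, was the highest member by length, at a mean of 96.4 ± 29.6 CPM per kb (SD, n = 31). It stood above Usp16 in 31 of 31 embryos. Usp16, a histone H2A deubiquitinase active in the cell cycle, followed at 55.6 ± 17.5 and stood above Usp19 in 25 of 31. Usp19, which can be anchored in the endoplasmic reticulum, had 39.1 ± 12.3. The next members were close to each other. Usp38 had 35.3 ± 15.5, Usp15 34.5 ± 9.59, Usp37 30.9 ± 12.4 and Usp28 30.8 ± 11.4 CPM per kb, and each stood above the next in only 16 to 18 of 31 embryos, so their order lies within the spread. Usp15 acts on TGF-beta signalling and splicing factors, Usp37 on the cell cycle, and Usp28 on the stability of Myc and of checkpoint proteins. Usp46, a partner of Wdr48, came eighth with 18.8 ± 23.6, where the SD exceeds the mean, and it was above Usp2 in 12 of 31 embryos. In CPM, without regard to length, Usp15 led with a mean of 572, ahead of Usp16 with 526 and Usp1 with 359.95.

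Among the lowest tested members, Usp49, a histone H2B deubiquitinase, had 1.77 ± 1.01 CPM per kb and Usp6nl 1.2 ± 1.06. Below them were the 6 members that failed the filter on low counts. Usp44, which acts at the mitotic checkpoint, had 0.827 ± 1.04 CPM per kb with a count in 20 of 31 embryos, and Usp40 had 0.253 ± 0.276 with a count in 20. Usp35 had a count in 9 embryos, Usp25 in 7 and Usp18, which removes the ubiquitin-like protein ISG15 after interferon, in 2. Usp9y is treated with the sex chromosomes.

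Between these ends the members of each role were spread widely in mean CPM per kb (SD, n = 31). Of the histone enzymes, Usp36 had 18.01 ± 9.32, Usp22 17.9 ± 13.7, Usp21 15.3 ± 8.44, Usp3 8.40 ± 9.82, Usp51 4.79 ± 4.40 and Usp27x 3.68 ± 3.67, so Usp16 was well above the rest of its group. Usp5 had 17.7 ± 8.65, against 2.30 ± 1.89 for Usp14, which sits on the proteasome, and 1.95 ± 2.01 for Usp13. The splicing-related members were Usp39 with 16.1 ± 9.94, Usp4 with 11.7 ± 5.61, Usp15 and Usp49. Usp39 had a count in 30 of 31 embryos.

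Among the membrane and organelle enzymes, Usp8 had 16.9 ± 7.28 CPM per kb, Usp33 10.9 ± 5.04, Usp32 9.72 ± 6.03, Usp30 6.95 ± 7.39 and Usp20 4.97 ± 3.05. Usp30 varied more than Usp8, with an SD above its mean. The large enzymes had 17.2 ± 10.5 for Usp9x, 14.3 ± 5.22 for Usp34, which acts on Wnt signalling, 9.48 ± 3.30 for Usp47 and 4.32 ± 2.13 for Usp24. Usp29 had 3.57 ± 3.53 and Usp26 6.02 ± 5.04, both far under Usp37.

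Other members filled the same range. Usp2, a circadian and cell-cycle enzyme, had 18.2 ± 12.8 CPM per kb, and Usp45, which acts in repair of ultraviolet damage, 3.12 ± 1.90. Usp42 had 17.4 ± 5.49, Usp10 16.3 ± 6.88, Usp48 14.4 ± 4.67, Usp43 10.3 ± 7.52 and Usp31 5.01 ± 2.97. Usp53 had 11.1 ± 3.01 and Usp54 10.7 ± 5.96, and Usp50 6.95 ± 4.41. Usp12 had 5.04 ± 3.16, under Usp1 and Usp46, the other partners of Wdr48. The median coefficient of variation over 31 embryos was 0.582 in the 44 tested members and 0.628 in all tested genes.

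Related members were expressed at very unequal levels. In the pairs Usp28 and Usp25, Usp38 and Usp35, Usp16 and Usp45, and Usp5 and Usp13, the first gene was the higher in all 31 embryos. The ratio of mean CPM per kb was 493 for Usp28 over Usp25, 256 for Usp38 over Usp35, 17.8 for Usp16 over Usp45 and 9.07 for Usp5 over Usp13. Usp5 and Usp13 take apart free ubiquitin chains. Among the histone enzymes that can join the SAGA module, Usp22 was 4.88 times Usp27x and 3.75 times Usp51 in the mean, but only in 25 and 24 of 31 embryos. Usp46 was 3.73 times Usp12 in 28 of 31. Usp15 was 2.96 times Usp4 in 30 of 31 and 6.52 times Usp11 in all 31. Usp37 was 8.67 times Usp29, an imprinted gene transcribed from the paternal copy, and 5.13 times Usp26, an X-linked testis gene, in all 31. The sizes of these ratios depend on the scale. In CPM they were 22.9 for Usp15 over Usp11, 13.8 for Usp37 over Usp26 and 5.51 for Usp5 over Usp13.

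Some pairs were level. Usp36, a nucleolar enzyme, and Usp42 differed by a ratio of 1.04 with Usp36 higher in 15 of 31 embryos. Usp53 and Usp54, long listed as inactive members, had the ratio 1.04 (18 of 31), and Usp2 and Usp21 1.19 (17 of 31). Usp43 was 2.06 times Usp31 per kb but 0.950 times it in CPM, so that order depends on the scale. Other pairs lay between. Usp8, which acts at endosomes, was 2.44 times Usp50 (27 of 31), and Usp33 was 2.19 times Usp20 (27 of 31). Usp3 was 10.2 times Usp44 (30 of 31) and Usp49 2.14 times Usp44 (22 of 31). Usp9x was 3.99 times Usp24 in all 31.

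**Figure D2:**
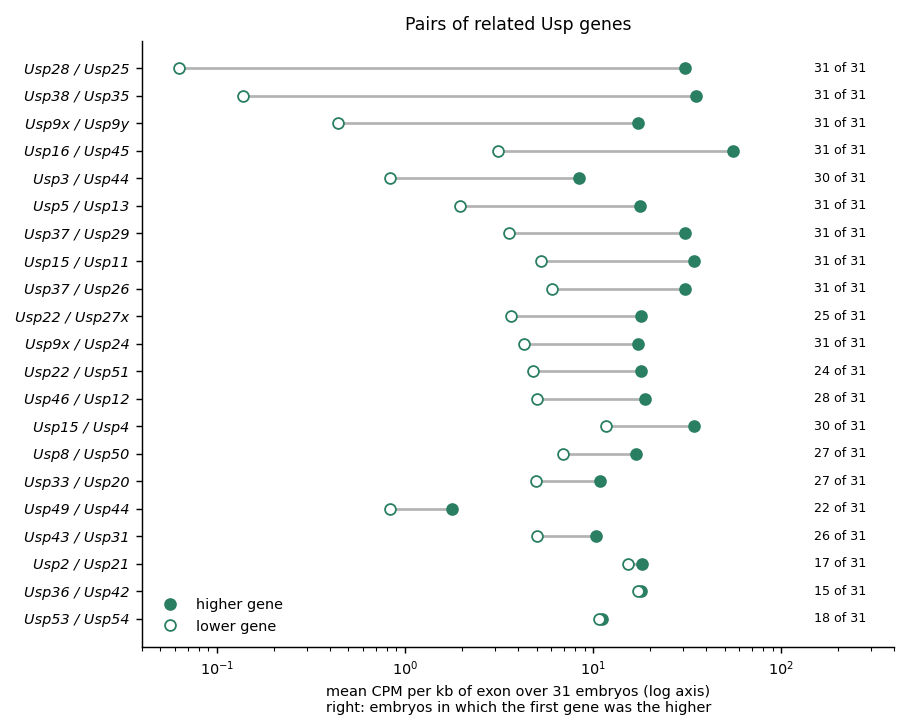
Mean CPM per kb of exon over 31 embryos, on a log axis, of both genes of 21 pairs of related members, with the filled point for the higher gene and the open point for the lower. The numbers at the right count the embryos in which the first-named gene was the higher, from 31 of 31 for Usp28 over Usp25 to 15 of 31 for Usp36 over Usp42.

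On the X chromosome lie 5 members and on the Y 1. Usp9x, a very large enzyme, was the highest of them, with 34.1 to 454 CPM (median 206) in control-generated and 104 to 876 (median 242) in SER-generated embryos. Usp26 ranged from 0 to 40.8 CPM (median 20.7) in controls and 0 to 85.2 (median 22.5) in SER. Usp11 ranged from 0 to 106 (median 17.2) and from 5.13 to 85.6 (median 18.2) in the same order. Usp27x reached 77.1 in controls and 43.5 in SER, and Usp51 32.3 and 35.4, each with a lowest value of 0 in both groups. The ranges of all 5 overlapped between the groups, which was not counted over all tested genes.

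Usp9y had a count in 16 of 31 embryos, and more than 3 counts in 6, of which 4 were controls and 2 SER. A count of 3 corresponds to 5.63 CPM in the smallest library and 0.971 in the largest, for counting error only. The highest was control 1 with 54 counts (33.2 CPM), followed by SER 5 with 21 counts (24.1 CPM). In the 6 embryos with more than 3 counts, 6 other Y genes summed to 8.34 to 207 CPM (median 49.5). In the other embryos they summed to 0 to 87.5 (median 1.12), so some embryos with Y transcripts had few or no Usp9y counts. Usp9x was 39.4 times Usp9y in the mean per kb and higher in all 31 embryos. The Usp9y and Usp9x boxes printed at the start differ at 1 base, and how reads shared by both genes were counted is not stated.

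SER- and control-generated embryos were then compared by edgeR's quasi-likelihood test over the 8571 genes that passed the filter, 44 of them members, with Benjamini-Hochberg adjustment and a threshold of 0.1. No member passed, at a background of 0% of all tested genes, and the smallest adjusted p of a member was 0.809. At an unadjusted p under 0.05, 2 members were higher and 0 lower, beside 2.18% of all tested genes higher and 3.55% lower. By sign alone, 28 of 44 members were higher and 16 lower in SER. The median log2 fold change of the members was 0.19 and that of all tested genes 0.02, and 52.7% of all genes were higher. With surrogate variables the 2 medians were 0.09 and -0.06, with voom weights 0.05 and -0.01, and with the library size as a covariate 0.12 and -0.01. The ranges of the groups overlapped in all 44 members. The share over all tested genes was not computed, so this is no result about the family.

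The summed CPM of the 50 members was 3315 to 6059 (median 4937) in control-generated embryos and 4580 to 7763 (median 5498) in SER-generated ones. The mean was 4988 ± 640 (SD, n = 16) in controls and 5698 ± 799 (SD, n = 15) in SER. The lowest sum was control 3, which was also the lowest embryo in 10 of the 44 tested members, and the highest was SER 2, the highest embryo in 8. The sum is given as a description only.

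The 5 members with the smallest p among those higher in SER were Usp28, Usp38, Usp31, Usp22 and Usp10. Usp28 had 76.1 to 232 CPM (median 143) in controls and 113 to 401 (median 196) in SER. Its log2 fold change was 0.41 ± 0.18 (SE; unadjusted p = 0.0311, adjusted p = 0.809), with the top SER values above the controls and most embryos shared in range. Usp38 had 86.0 to 286 CPM (median 150.3) in controls and 88.8 to 465 (median 241) in SER, a log2 fold change of 0.45 ± 0.22 (unadjusted p = 0.0485, adjusted p = 0.869). Usp31 had 12.1 to 109 CPM (median 38.2) in controls and 16.8 to 154 (median 58.3) in SER, with 0.55 ± 0.27 on the log2 scale and an adjusted p of 0.869. These differences did not exceed the spread between embryos after adjustment.

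Usp22, the deubiquitinase of the SAGA coactivator complex, showed the largest fold change of the tested members. It had 1.75 to 139 CPM (median 66.0) in controls and 0.389 to 256 (median 107) in SER, and its log2 fold change was 0.88 ± 0.47 (adjusted p = 0.869). Its lowest values came from embryos of both groups. Usp10, which works with the stress-granule proteins G3bp1 and G3bp2, had 39.99 to 274 CPM (median 120.5) in controls and 74.1 to 294 (median 169.6) in SER, with 0.42 ± 0.23 and an adjusted p of 0.869.

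On the lower side the 5 were Usp53, Usp15, Usp12, Usp20 and Usp27x. Usp53, found at tight junctions, had 86.3 to 205 CPM (median 156) in controls and 64.3 to 202 (median 129.6) in SER. Its log2 fold change was -0.33 ± 0.17, with an adjusted p of 0.869. Usp15 had 384 to 958 CPM (median 586) in controls and 262 to 784 (median 497) in SER, with -0.22 ± 0.18 and an adjusted p of 0.936. Usp12, Usp20 and Usp27x had log2 fold changes of -0.38 ± 0.36, -0.30 ± 0.34 and -0.47 ± 0.63 (SE), all with adjusted p of 0.950 or more. Their control medians were 20.6, 41.3 and 15.6 CPM, and their SER medians 20.2, 45.3 and 9.16. These sizes moved with single embryos. Usp27x had -0.11 without control 14, Usp20 -0.11 without control 13, Usp12 -0.24 without control 14 and Usp15 -0.14 without control 4. In Usp20 the median was the higher in SER while the fitted change was negative.

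**Figure D3:**
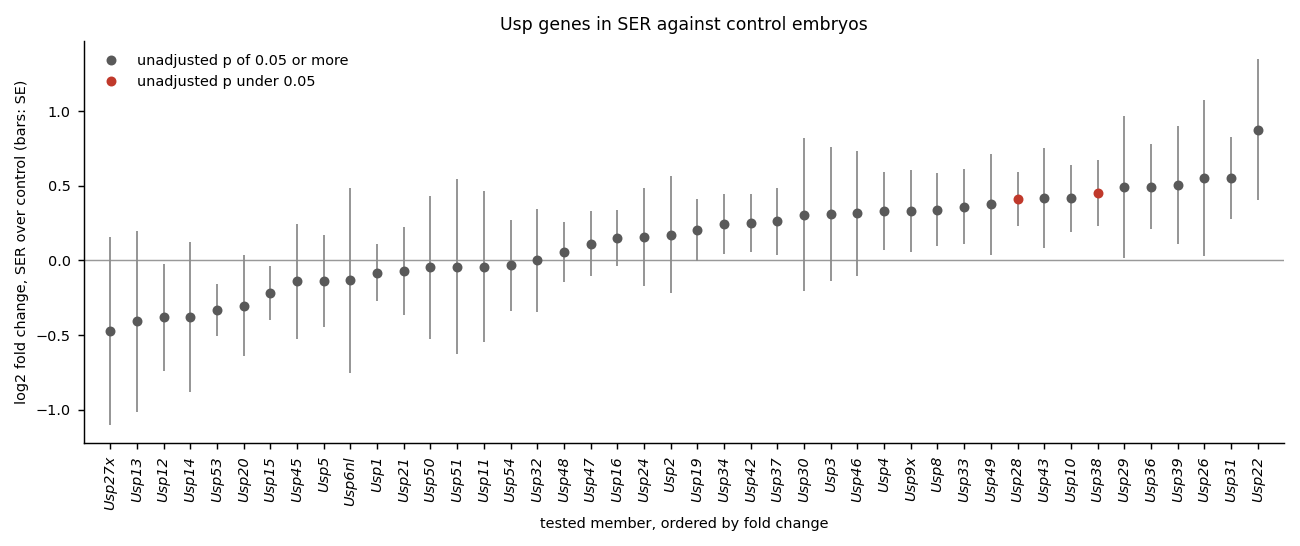
Log2 fold change of the 44 tested members in SER-generated over control-generated embryos, with the standard error as a bar, ordered by size. Red points are Usp28 and Usp38, the 2 members with an unadjusted p under 0.05. The values run from -0.47 for Usp27x (-0.11 without control 14) to 0.88 for Usp22, and no member passed the adjusted threshold.

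By role, the histone H2A and H2B enzymes (8 tested) were higher in 5 and lower in 3, with a median log2 fold change of 0.23. The enzymes of the proteasome and of free chains, Usp5, Usp13 and Usp14, were lower in 3 of 3, with changes of -0.14, -0.41 and -0.38, none of which passed. Leaving out 1 embryo moved them to -0.01 for Usp5 (control 13), -0.04 for Usp13 (control 16) and -0.04 for Usp14 (control 2). The 4 tested large enzymes, Usp9x, Usp24, Usp34 and Usp47, were higher in 4 of 4 (0.11 to 0.33), beside 52.7% of all tested genes. The 3 genes of the Usp37 branch were higher in 3 of 3 (0.26 to 0.55), again with none past the threshold. Single embryos moved these sizes too, though none changed sign. Without SER 2, Usp9x had 0.11, Usp47 0.05, Usp29 0.25 and Usp26 0.35, and without SER 3 Usp24 had 0.06. The membrane and organelle enzymes were higher in 5 of 7, the splicing group in 3 of 4, and the Wdr48-dependent enzymes in 1 of 3. Of the 4 members of no or doubtful catalytic activity 1 was higher, Usp39 with 0.51 ± 0.40.

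Limma voom with sample quality weights was the exception among the alternatives. It called 3 members higher, Usp22, Usp29 and Usp33, at a background of 4.56% of all tested genes, and 2 lower, Usp21 and Usp53, at a background of 5.33%. With it, the log2 fold change of Usp22 was 1.18 (adjusted p = 0.0835) and that of Usp53 -0.44 (adjusted p = 0.0752). No member was called by DESeq2, without the filter, or with 5 surrogate variables.

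The embryos differed among themselves in the levels of zygotic and maternal marker RNA. An index was therefore computed for each embryo as the mean z score of 17 zygotic genes minus that of 21 maternal genes, no member being in either list. It ran from -3.14 in control 4 and -2.39 in SER 15 to 1.30, with a median of 0.236. The next lowest embryo, SER 8, was at -1.10. The mean was -0.189 ± 0.879 (SD) in 16 controls and 0.202 ± 0.904 in 15 SER-generated embryos, and the groups did not differ beyond this spread (2-sided permutation test with 100000 resamples, p = 0.249). The index against log2 library total gave Pearson r = 0.231 (permutation p = 0.213) and Spearman rho = 0.444 (permutation p = 0.0137) over 31 embryos, the only relation of this kind computed. Without the 2 embryos farthest from the median index r was 0.451.

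In a fit with group as a factor, the slope of each gene on the index was tested across all 8571 genes. In all, 20 of 44 members passed an adjusted p of 0.1. With the index 11 rose, Usp1, Usp10, Usp16, Usp22, Usp24, Usp32, Usp33, Usp36, Usp37, Usp38 and Usp50, beside 28.2% of all tested genes. Another 9 fell, Usp2, Usp3, Usp4, Usp11, Usp15, Usp21, Usp30, Usp46 and Usp51, beside 21.2% of all tested genes. The members' shares were near those of all genes and are no result about the family. The calls depended on a few embryos, for the members as for all genes. Without SER 15 alone, 7 members rose, beside 20.4% of all tested genes, and 5 fell, beside 12% of them, and Usp1, Usp10, Usp16, Usp24, Usp2, Usp4, Usp21 and Usp51 no longer passed. Usp1 also lost its call without any 1 of control 1, 4, 5, 9 and 16 and SER 1, 7 and 8, and Usp10 without any 1 of control 2, 4, 5, 7, 8 and 12 and SER 5 and 7. Usp4 lost it without any 1 of control 4 and SER 4, 9, 10 and 11, and Usp2 without SER 4.

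Without control 4 and SER 15, a choice made after seeing the data, 3 members rose, Usp22, Usp29 and Usp33, beside 8.56% of all genes, and 2 fell, Usp15 and Usp46, beside 5.97%. The 5 embryos control 3, control 4, control 5, SER 8 and SER 15 were also chosen after seeing the data. They are not the 5 lowest on the index, as control 16 (-0.70) was kept. Without them, 0 members rose, beside 5.71% of all genes, and 2 fell, Usp21 and Usp46, beside 3.65%. Usp46 was therefore past the threshold in each of these fits. Of the 44 slopes, 24 were positive with all embryos and 21 without the 2.

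**Figure D4:**
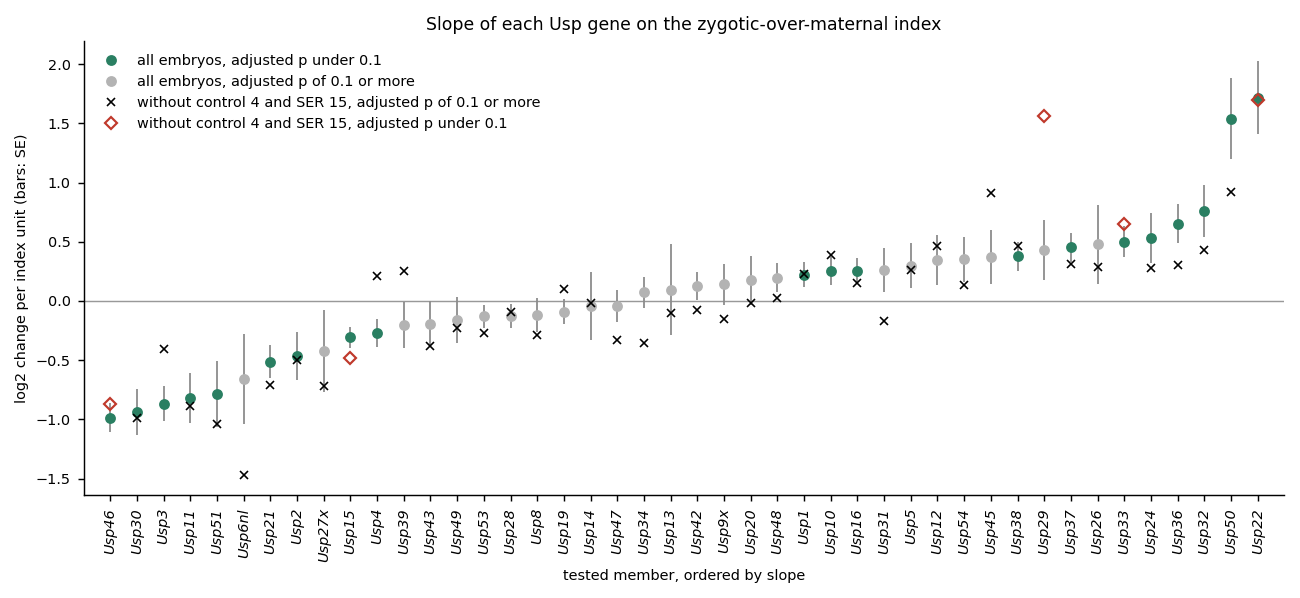
Slope of the 44 tested members on the zygotic-over-maternal index, as log2 change per index unit, with the standard error as a bar. Green points passed an adjusted p of 0.1 with all 31 embryos (11 positive, 9 negative), and red diamonds mark the 5 members past it without control 4 and SER 15.

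Usp22 had the steepest slope. It had 4.53 CPM in control 4 and 0.389 in SER 15, and 1.75 to 256 (median 92.2) in the other 29 embryos. Its slope was 1.72 ± 0.31 log2 per index unit (SE; adjusted p = 4.73e-05) and 1.69 ± 0.45 (adjusted p = 0.0209) without the 2 embryos. Without the 5 embryos it was 1.29 ± 0.58, with an adjusted p of 0.168. Usp50, a small relative of Usp8, was at 0 in both control 4 and SER 15 and had 3.11 to 51.3 CPM (median 25.2) in the others. Its slope was 1.54 ± 0.34 (adjusted p = 0.000556) and 0.92 ± 0.42 (adjusted p = 0.154) without them, so its call rested on those 2.

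Usp36 had 25.7 CPM in control 4 and 10.5 in SER 15, the lowest embryos, and 40.5 to 313 (median 139) in the others. Its slope of 0.65 ± 0.16 (adjusted p = 0.00193) became 0.30 ± 0.22 (adjusted p = 0.376) without them. On the mean z score of the zygotic list alone, with all embryos, the slope of Usp36 was 0.24 (adjusted p = 0.613). Usp33, found at the centrosome and in membrane traffic, had 25.7 and 55.7 CPM in the 2 embryos and 46.9 to 225 (median 93.0) in the others. Its slope was 0.50 ± 0.13 (adjusted p = 0.00313) and 0.65 ± 0.24 (adjusted p = 0.0901) without them. Usp37 had 116 and 98.9 CPM there against 169.7 to 681 (median 329.6) elsewhere, with a slope of 0.45 ± 0.12 (adjusted p = 0.00408) and 0.31 ± 0.22 (adjusted p = 0.354) without them. In Usp36 and Usp37 the 2 embryos lay below all the others.

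On the falling side, Usp46 had 429 CPM in control 4 and 1040.2 in SER 15, against 28.2 to 266 (median 96.1) in the other 29. Its slope was -0.98 ± 0.12 (adjusted p = 3.56e-07) and -0.87 ± 0.32 (adjusted p = 0.0836) without them. Usp3, an H2A deubiquitinase that also acts in the DNA damage response, had 187 and 369 CPM in the 2 embryos and 2.93 to 94.3 (median 40.7) in the others. Its slope was -0.87 ± 0.15 (adjusted p = 2.42e-05) with all embryos and -0.41 (adjusted p = 0.525) without the 2. Usp30, a mitochondrial deubiquitinase that limits removal of mitochondria, had 140.3 and 227 CPM against 0 to 85.2 (median 30.02). Its slope was -0.94 ± 0.20 (adjusted p = 0.000283) and -0.99 ± 0.50 (adjusted p = 0.1998) without them. In these 3 members the 2 embryos lay above all the others.

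Usp11 had 106 and 70.1 CPM in the 2 embryos against 0 to 85.6 (median 16.2), and Usp21, an H2A deubiquitinase, 83.0 and 199.8 against 21.3 to 133 (median 64.0). Their slopes were -0.82 ± 0.21 (adjusted p = 0.00264) and -0.51 ± 0.14 (adjusted p = 0.00388). Without the 2 embryos they were -0.89 (adjusted p = 0.272) and -0.71 (adjusted p = 0.103). Without SER 15 alone the adjusted p of Usp21 was 0.118.

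**Figure D5:**
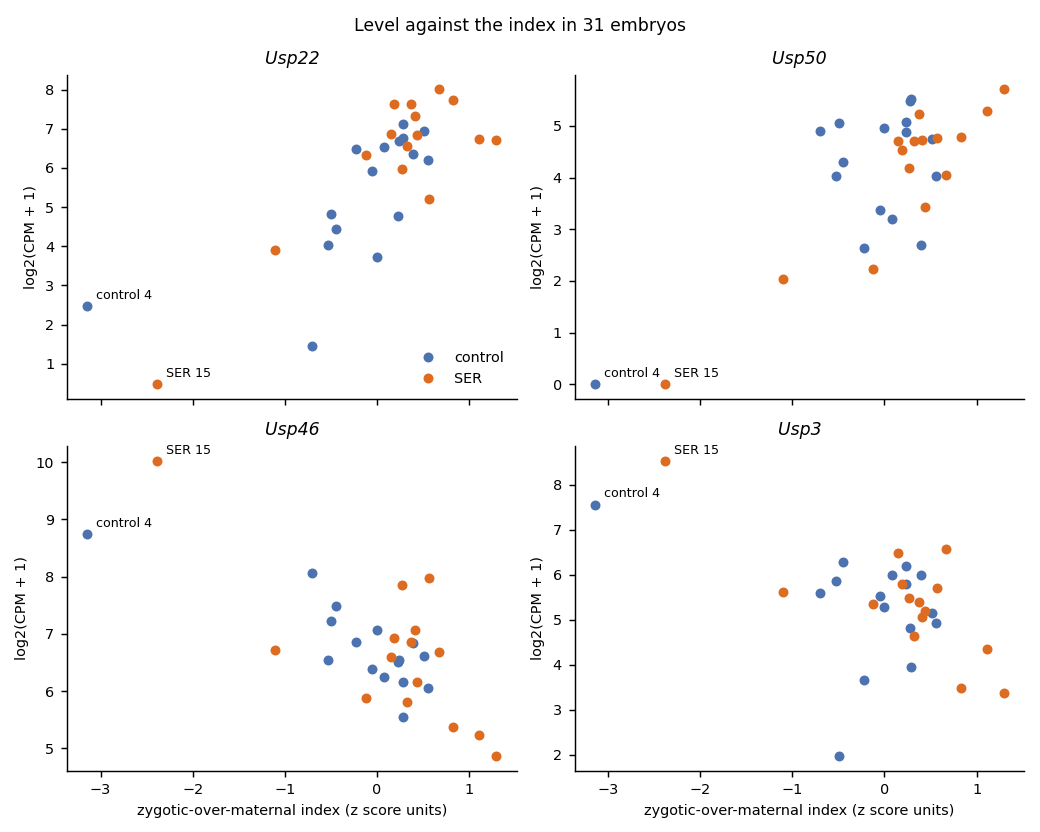
Level of Usp22, Usp50, Usp46 and Usp3 as log2(CPM + 1) against the zygotic-over-maternal index in 31 embryos, control-generated in blue and SER-generated in orange. Control 4 (index -3.14) and SER 15 (index -2.39) lie far to the left, at the bottom for Usp50 and at the top for Usp46 and Usp3.

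By role, 6 of 8 tested histone enzymes were called with all embryos, beside 49.3% of all tested genes in either direction. Within the group 3 rose (Usp16, Usp22, Usp36) and 3 fell (Usp3, Usp21, Usp51), so its called genes had both signs. Without SER 15 alone Usp16, Usp21 and Usp51 no longer passed. Without control 4 and SER 15, Usp22 was the only one of the group that passed. Usp22 and Usp51, which can take the same place in the SAGA module, had slopes of 1.72 and -0.79 with all embryos. The adjusted p of Usp51 was 0.121 without SER 15. Of the 3 Wdr48 partners, Usp1 had a slope of 0.22 (adjusted p = 0.0898), Usp46 of -0.98, and Usp12 of 0.34 (adjusted p = 0.195). Usp46 and Usp12, whose boxes differ at 6 of 30 bases, thus had slopes of opposite sign. All 4 splicing-related members had a negative slope with all embryos, of which 2, Usp4 and Usp15, passed. Without control 4 and SER 15, Usp4 turned to 0.21 (adjusted p = 0.617) and Usp39 to 0.25 (adjusted p = 0.737), so the shared sign rested on those embryos. None of Usp5, Usp13 and Usp14 passed. The 3 genes of the Usp37 branch had slopes of 0.43 to 0.48, of which Usp37 passed with all embryos and Usp29 without the 2.

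Other deubiquitinases and the partners of Usp enzymes gave 40 tested genes. In the SER comparison 0 passed, beside 0% of all tested genes. The 27 tested deubiquitinases of other families had 12 higher and 15 lower and a median log2 fold change of -0.03. The smallest p belonged to Vcpip1, which helps rebuild the Golgi after mitosis, with 0.66 ± 0.21 (adjusted p = 0.465). Uchl1, an abundant oocyte hydrolase, had -0.65 ± 0.23 (adjusted p = 0.627) and Otud3 -0.57 ± 0.28 (adjusted p = 0.869).

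Of the 13 tested partners and ubiquitin genes, 6 were higher and 7 lower. Eny2, a subunit of the SAGA module with Usp22, had -0.81 ± 0.36 (adjusted p = 0.809) and -0.31 without control 3, while Atxn7l3, the other subunit needed for its activity, had 0.74 ± 0.47 (adjusted p = 0.918). Wdr48, the activator of Usp1, Usp12 and Usp46, had 0.29 ± 0.26 (adjusted p = 0.941). On the index, with all embryos, Atxn7l3 had a slope of 1.84 ± 0.30 (adjusted p = 1.32e-05), Usp22 1.72 and Eny2 -0.37 ± 0.19 (adjusted p = 0.117). Usp22 had 1.69 (adjusted p = 0.0209) without control 4 and SER 15 and 1.29 (adjusted p = 0.168) without the 5 embryos. Such values are not given for Atxn7l3. Of the 13 tested partners and ubiquitin genes 5 rose and 2 fell, beside 28.2% and 21.2% of all tested genes. Of the 27 other deubiquitinases 5 rose and 8 fell, beside the same shares.

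Exons of some members overlap other genes, and the strand setting of the counting is not stated. Usp14 shares 2169 of its 8345 exon bases with Thoc1 on the other strand, Usp34 2137 of 18453 with Ahsa2 and Usp29 2582 of 18078 with Zim3. Usp49 shares 4392 of 8581 bases with Gm20517 on the same strand. Usp38 shares 1174 of 5736 bases with Gm9725, Usp43 609 of 4745 with 9130017K11Rik, and Usp33 745, 1478 and 139 of 9675 with Gm42967, Gm43857 and Gm43859, all on the other strand. Smaller overlaps with other genes exist for further members. The levels of these members are uncertain to that extent.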

How the data were processed

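Single-embryo Smart-seq3 libraries of 16 control- and 15 SER-generated embryos were sequenced. The authors mapped 5′ reads, which carry a molecular identifier, and internal reads with STAR, dropped duplicates of each kind and merged them. Their deposited table gives unnormalized whole-number counts per gene for 20544 symbols. The submitters' processing notes name mm10, STAR, Picard, featureCounts and DESeq2, and the strand setting is not given in the sources used here. Internal reads carry no identifier, so the floor of 3 counts given for Usp9y covers counting error only. Each SD and SE also holds the spread between embryos.

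The counts were tested by edgeR 4.0.16 (R 4.3.3; TMM, quasi-likelihood test, Benjamini-Hochberg adjustment over all tested genes, adjusted p under 0.1) after filterByExpr (minimum count 10, minimum total 15), which kept 8571 genes. The standard error is the log2 change divided by the square root of F. CPM used each library's total count of 532945 to 3088396. Gene positions and exon unions were read from GENCODE vM21 (GRCm38), in which 20013 symbols matched directly, 336 by an older symbol and 195 not. The index used log2 CPM with a prior count of 1. The fits were tested on simulated data. No libraries were identical.

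Members with values in full were the 8 highest by CPM per kb, up to 5 with the smallest p in each direction of each comparison, those on X and Y, and related pairs as levels. Of the other lists, 3 with the smallest p were named. Members and lists were chosen with earlier results of these data known. Alternatives were DESeq2 size factors, no filter and a stricter filter (10 counts in 15 embryos), DESeq2 1.42.0, limma 3.58.1 voom with weights, library size as covariate, 5 surrogate variables (sva 3.50.0), thinning, a replicate block, an adjusted p under 0.05, the zygotic list alone, no group term, CPM or medians for levels, and leaving out each embryo. The authors' batches are not named for single embryos and their correction was not repeated. Index slopes of some genes of the partner list are not reported here.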

Additional observations from a re-analysis of the deposited data

How the results depend on the processing

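Limma voom with sample quality weights moved the calls of the SER comparison, from 0 to 3 members higher and 2 lower, and from 0 to 2 of the other deubiquitinases and partners higher and 4 lower. Without the filter, 1 of the latter was lower. Under the remaining alternatives 0 members were called. Over all tested genes the SER calls were 0 in edgeR, 8 higher and 37 lower in DESeq2, 141 and 363 without the filter, 391 and 457 with voom, 8 and 53 with surrogate variables, and 0 and 5 after thinning. For single genes, Eny2 changed sign with surrogate variables (0.0198) and Wdr48 with voom (-0.00733), and the cause was not tested. Leaving out 1 embryo at a time gave 0 to 0 calls in the SER comparison, for members as for all tested genes. On the index it gave 7 to 12 rising members, beside 1746 to 2573 of all 8571 tested genes. Falling members were 5 to 10, beside 1030 to 1994 of all tested genes. Members and all genes alike were lowest without SER 15. Without control 4 and SER 15 the index gave 3 rising and 2 falling members, and without the 5 embryos 0 and 2. Over all genes the index called 2414 rising and 1815 falling, 1596 and 994 with the zygotic list alone, and 734 and 512 without the 2 embryos. With the zygotic list alone 10 members rose and 7 fell, and Usp2, Usp10, Usp15, Usp16 and Usp36 no longer passed. The share of members higher in SER was 63.6%, beside 52.7% of all tested genes. It was 54.5% beside 49.0% with voom, and 68.2% beside 52.6% with the replicate block. Of the 8 highest members, 6 were among the 8 highest in CPM and 7 by median CPM per kb.

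With the replicate number as a replicate block, 0 members were called in either direction, as without it, and Usp28 had a log2 fold change of 0.40. Same-numbered embryos correlated from -0.35 to 0.48 over 15 pairs, 8 of them over 0.1, and 4 embryos correlated best with their own number. The batch of each embryo is not known, so these values cannot decide whether the numbers pair the embryos or follow batches. The 6 members under the filter were not tested, and 15 embryos had no count of Usp9y.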
